A study of Xenopus laevis with 4 samples.

Results

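The pou5f3 genes of Xenopus laevis that carry a copy number were described in ventral mesoderm of gastrulating embryos with and without sox8 knockdown. The members were the rows named pou5f3.1, pou5f3.2 or pou5f3.3 with the suffix .L or .S, and 4 of the 21531 genes of the table matched, namely pou5f3.2.L, pou5f3.2.S, pou5f3.3.L and pou5f3.3.S. The names pou5f3.1.L and pou5f3.1.S are also covered by this rule, and these genes were not analysed here. X. laevis is an allotetraploid frog, and .L and .S mark the homeologs on its long and short subgenomes. Besides the members, the table held pou5f3.L and pou5f3.S, which bear the family name without a copy number. No source used here ties these rows to a copy, so they are given under their own names.

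Ventral mesoderm was taken from embryos of both groups, with 2 libraries each, labelled embryo 1 and embryo 2. Control embryos had received Cas7-11 mRNA, and sox8 CRISPR embryos the same mRNA together with guides against the 3' UTR of sox8. The sox8 CRISPR embryos are also called knockdown embryos here. By the study's account, every injection also carried a tracer, either Dextran Texas Red or mRNA for nuclear RFP. Cas7-11 is an RNA-guided ribonuclease that cuts RNA and leaves the DNA of the gene as it is. The study targeted the injections to the ventrolateral mesoderm, so explants of both groups can hold cells without injected RNA, and the labels name no guide for the controls. The series calls the libraries biological replicates, but neither the clutch nor the number of explants behind each library was given in the sources used here. Limma p-values, standard errors and intervals rest on the spread between these libraries, moderated toward that of other genes with similar counts. The fits of edgeR and DESeq2 share spread among genes too, whereas the exact permutation tests use these libraries alone.

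The pou5f3 genes encode class V POU-domain transcription factors, the amphibian counterparts of mammalian Oct4 (Pou5f1), which binds the octamer motif and holds embryonic stem cells in an uncommitted state. In Xenopus they arose as tandem copies: pou5f3.3 is also called oct60 and is a maternal transcript of the oocyte, whereas pou5f3.2, also called oct25, and pou5f3.1, also called oct91, are transcribed from the embryonic genome around gastrulation. Their proteins keep early cells competent and restrain target genes of Nodal, VegT and beta-catenin, working beside SoxB1 factors such as Sox3 and Ventx factors, which have been likened to mammalian Nanog.

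In sox8 CRISPR, all 4 members were higher in both libraries than in both controls, a pattern shown by 17.0% of all genes, and limma called 0 of them. An unadjusted limma p under 0.05 was found for 1 of the 4, against 6.79% of all genes. Both edgeR and DESeq2 also called 0 of the 4, with 2 at an unadjusted p under 0.05 in each. Over all 21531 genes 1416 in edgeR and 2062 in DESeq2 had such a p. The estimates were about 3-fold for the oct25 genes, 3.07-fold for pou5f3.2.L and 3.15-fold for pou5f3.2.S, and smaller for the oct60 genes, 1.46-fold for pou5f3.3.L and 1.79-fold for pou5f3.3.S. In the whole table limma called 0.334% of the genes, 0.144% higher and 0.19% lower. A gene was called when its Benjamini-Hochberg adjusted p over all genes was under 0.05 and its absolute log2 fold change was over 0.58. Values are normalized counts, that is, reads per gene divided by a size factor for the library, and log2 fold changes are differences of mean log2(normalized count + 1), sox8 CRISPR minus control.

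The libraries held from 18189895 to 24108577 reads on genes. The second sox8 CRISPR library listed 3862 genes at 0, against 667 to 1290 in the other libraries. The targeted gene sox8.L was at 508 and 927 normalized counts in control embryos, against 26.9 and 25.4 in knockdown embryos, a log2 fold change of -4.66 (standard error 0.97, limma adjusted p = 0.0436). Its homeolog sox8.S was at 14.1 and 43.7 in control embryos, against 134 and 0 in knockdown embryos, so the groups overlapped. Of 40 rows of ventrolateral mesoderm markers, which label the dissected tissue, 15 were called lower and 0 higher in sox8 CRISPR. The shares over all genes were 0.19% and 0.144%. Both controls had all 40 rows above 0. In both sox8 CRISPR libraries 31 of them lay below and 4 above both controls, against 19.1% and 17.0% of all genes. The 4 above were vegt.L, tbxt.S, tbxt.2.L and tbxt.2.S. Of 23 rows of organizer markers, limma called 8 higher and 0 lower, while edgeR called 14 and DESeq2 16. Over all 21531 genes limma called 72, edgeR 109 and DESeq2 423. The summed organizer markers were at 1229 and 1549 normalized counts in control embryos, against 89360.0 and 12098 in knockdown embryos. The tissue markers of the sox8 CRISPR libraries thus differed from those of the controls, and the part of this difference in the results on pou5f3 genes was not tested. In bulk tissue, fewer cells of a type and less RNA per cell cannot be told apart.

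The oct25 gene pou5f3.2.L had 1076 and 1924 normalized counts in control embryos, against 7824 and 2497 in knockdown embryos. The first sox8 CRISPR library was far above the other libraries, whereas the second lay only 1.30-fold above the higher control. That gap was smaller than the 1.79-fold between the controls and the 3.13-fold between the sox8 CRISPR libraries. The estimated log2 fold change, 1.62, had a standard error of 0.78 (95% interval -0.03 to 3.27), with a limma p of 0.0537 and an adjusted p of 0.742. Leaving out sox8 CRISPR replicate 1 lowered it to 0.79, and leaving out sox8 CRISPR replicate 2 raised it to 2.44.

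Its homeolog pou5f3.2.S had 422 and 253 normalized counts in control embryos, against 1659.7 and 642 in knockdown embryos. Here too the first sox8 CRISPR library stood highest, and the lower sox8 CRISPR library was 1.52-fold above the higher control. The controls differed by 1.67-fold and the sox8 CRISPR libraries by 2.59-fold. The estimated log2 fold change, 1.66, had a standard error of 0.76 (95% interval 0.06 to 3.26), with a limma p of 0.0429 and an adjusted p of 0.720. An unadjusted limma p under 0.05 was reached by 6.79% of all genes. The estimate was 0.97 when sox8 CRISPR replicate 1 was left out and 2.34 when sox8 CRISPR replicate 2 was left out.

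Tests on the whole reads recovered from the table gave similar estimates for the oct25 genes. DESeq2 gave pou5f3.2.L a log2 fold change of 1.78 with an adjusted p of 0.320, and pou5f3.2.S one of 1.77 with an adjusted p of 0.351. In edgeR's quasi-likelihood test the log2 fold changes were 1.85 and 1.86, with adjusted p of 0.730 and 0.680. Neither gene was called by either tool.

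**Figure D1:**
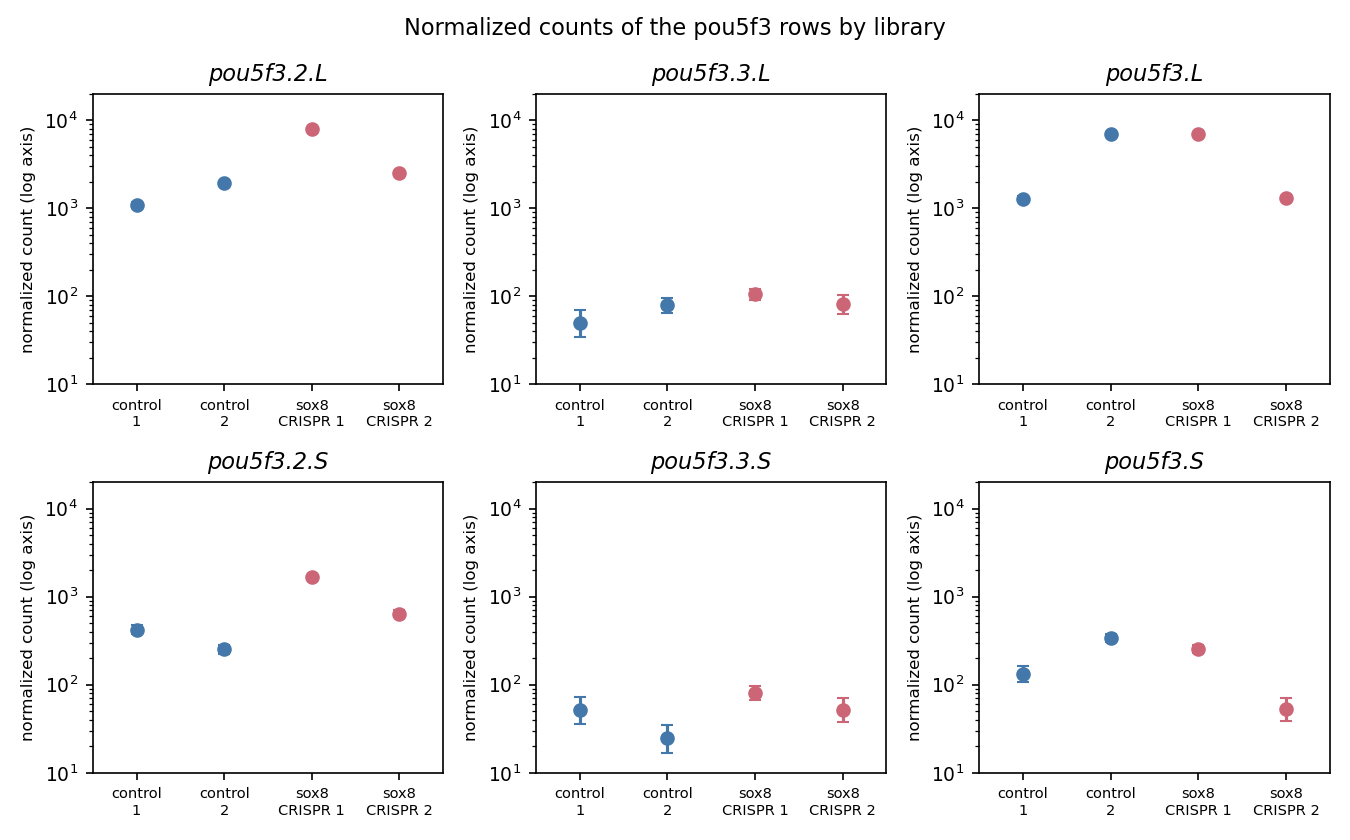
Normalized counts (log axis) of 6 pou5f3 genes in each library, controls in blue and sox8 CRISPR in red, with bars for the 95% exact Poisson interval of the reads, which covers counting error only. Both sox8 CRISPR points lie above both control points for pou5f3.2.L, pou5f3.2.S, pou5f3.3.L and pou5f3.3.S, while pou5f3.L and pou5f3.S overlap between the groups.

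The oct60 gene pou5f3.3.L was sparse, with 32 and 99 reads in control embryos, against 168 and 67 in knockdown embryos. These reads amounted to 49.97 and 78.7 normalized counts in control embryos, against 105 and 81.0 in knockdown embryos. The second sox8 CRISPR library lay only 1.03-fold above the second control, and the counting intervals of both libraries, 62.8 to 103 and 64.0 to 95.8 normalized counts (95%, exact Poisson), covered each other's value. The estimated log2 fold change, 0.55, had a standard error of 1.15 (95% interval -1.88 to 2.97, limma adjusted p = 0.935). An interval of this width, which also draws on the spread of other genes, leaves room for a change in either direction. Smart-seq2 reads carry no molecular identifiers, so these counting intervals cover counting error only and not amplification.

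For pou5f3.3.S, 33 and 31 reads were counted in control embryos, against 129 and 43 in knockdown embryos. Normalized counts were 51.5 and 24.6 in control embryos, against 80.6 and 52.0 in knockdown embryos. The lower sox8 CRISPR library was 1.01-fold above the higher control, well within the counting intervals of 37.6 to 70.0 and 35.5 to 72.4 normalized counts. The estimated log2 fold change, 0.84, had a standard error of 1.35 (95% interval -1.99 to 3.67, limma adjusted p = 0.912). With single libraries left out it ranged from 0.32 to 1.36, and that of pou5f3.3.L from 0.23 to 0.87.

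**Figure D2:**
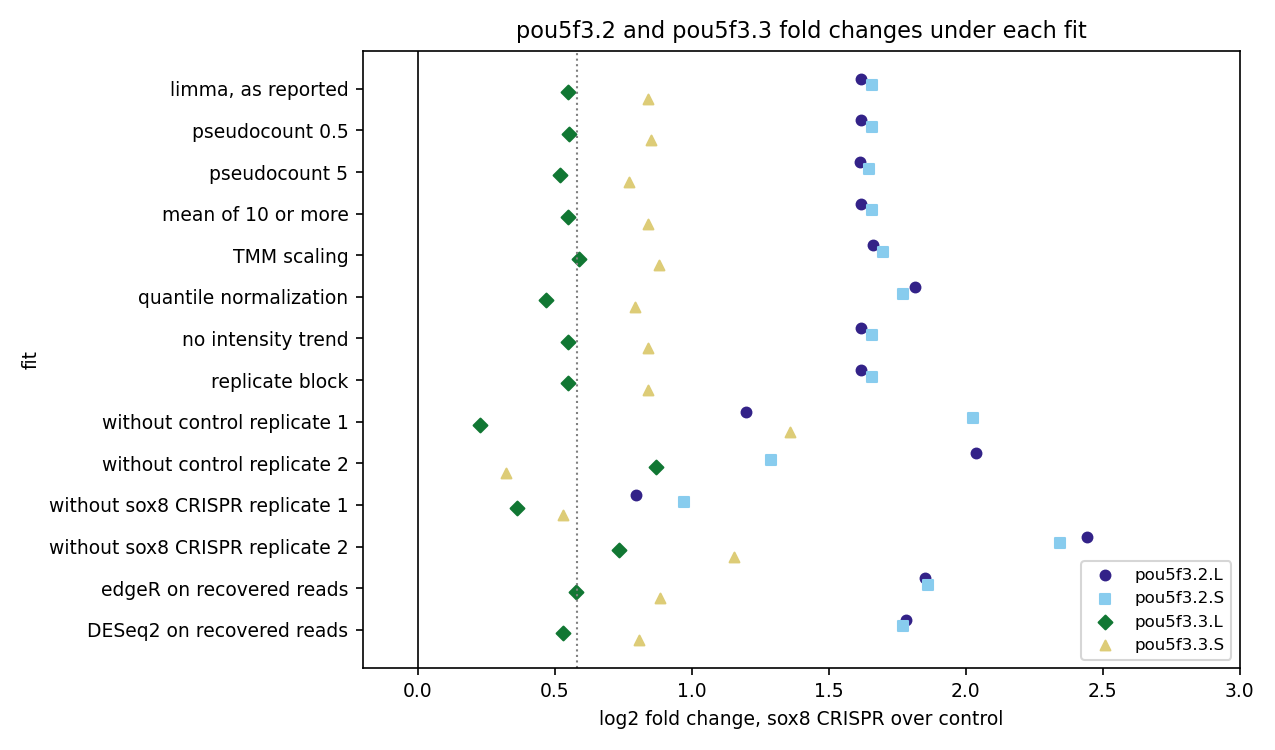
Log2 fold changes (sox8 CRISPR over control, x axis) of the 4 members under each fit (y axis), with a solid line at 0 and a dotted line at the fold threshold of 0.58. All points lie right of 0, and those of pou5f3.2.L range from 0.79 without sox8 CRISPR replicate 1 to 2.44 without sox8 CRISPR replicate 2.

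Tandem copies and homeologs are alike in sequence, and how reads that match several genes were counted was not stated, so reads may have been split among the members. Summed over all 4 members, there were 1599 and 2281 normalized counts in control embryos, against 9669 and 3272 in knockdown embryos. Both sums were higher in sox8 CRISPR, again with the first library in front. The difference of mean log2 sums was 1.56, with p = 0.333 in the two-sided exact permutation test, the smallest p that 2 libraries against 2 can give. Leaving out sox8 CRISPR replicate 1 gave 0.78, and leaving out sox8 CRISPR replicate 2 gave 2.34.

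The oct25 and oct60 genes were then summed apart. The oct25 sum was 1498 and 2177 normalized counts in control embryos, against 9483 and 3139 in knockdown embryos, a log2 difference of 1.60. The oct60 sum was 102 and 103 in control embryos, against 186 and 133 in knockdown embryos, a log2 difference of 0.62. Adding the homeologs brought the controls of oct60 close together, since pou5f3.3.L was higher in the second control and pou5f3.3.S in the first. Both differences had p = 0.333 in the exact permutation test. The ratio of oct25 to oct60 counts was 14.8 and 21.1 in control embryos, against 51.1 and 23.6 in knockdown embryos. This is a log2 difference of 0.98, with no overlap between the groups and the same exact permutation p of 0.333, the smallest that 2 against 2 libraries can give.

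Shares within a library do not depend on the size factor. They are shares of counts, not of transcripts, because exon lengths were not used here, and only the same gene is compared between libraries. Of the 4-member sum, pou5f3.2.L took 67.3% and 84.4% in control embryos, against 80.9% and 76.3% in knockdown embryos. Its homeolog pou5f3.2.S took 26.4% and 11.1% in control embryos, against 17.2% and 19.6% in knockdown embryos. For both oct25 genes the sox8 CRISPR values lay between the control values, and the exact permutation p was 1. The share of pou5f3.3.L was 3.13% and 3.45% in control embryos, against 1.09% and 2.48% in knockdown embryos, without overlap (exact permutation p = 0.333). The share of pou5f3.3.S was 3.22% and 1.08% in control embryos, against 0.833% and 1.59% in knockdown embryos, with overlap.

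The balance of homeologs was also compared. Among oct25 counts, the .L gene held 71.8% and 88.4% in control embryos, against 82.5% and 79.6% in knockdown embryos. Among oct60 counts, it held 49.2% and 76.2% in control embryos, against 56.6% and 60.9% in knockdown embryos. In both of these pairs the sox8 CRISPR libraries fell inside the range of the controls (exact permutation p = 1). Among the counts of pou5f3.L and pou5f3.S, the .L gene held 90.6% and 95.3% in control embryos, against 96.5% and 96.1% in knockdown embryos. These groups did not overlap (exact permutation p = 0.333, the smallest that 2 against 2 libraries can give).

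The rows without a copy number behaved otherwise. The gene pou5f3.L had 1282 and 6890.1 normalized counts in control embryos, against 6986 and 1309 in knockdown embryos. High and low libraries thus stood in both groups, with the controls 5.37-fold and the sox8 CRISPR libraries 5.34-fold apart. Its estimated log2 fold change, 0.02, had a standard error of 0.93 (95% interval -1.93 to 1.98, limma adjusted p = 0.995). The sign depended on the libraries used, with -1.19 without control replicate 1, -1.18 without sox8 CRISPR replicate 1, 1.24 without control replicate 2 and 1.23 without sox8 CRISPR replicate 2. For pou5f3.S, there were 133 and 338 normalized counts in control embryos, against 254 and 53.2 in knockdown embryos. Its groups overlapped as well, and the estimated log2 fold change, -0.86, had a standard error of 1.01 (limma adjusted p = 0.886). Without sox8 CRISPR replicate 2 its value was 0.26.

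Taken over all 6 pou5f3 genes, the summed counts were 3014 and 9508 in control embryos, against 16908 and 4634 in knockdown embryos. These groups overlapped, and the log2 difference fell to 0.73 (exact permutation p = 0.667), with a range from -0.21 to 1.66 when single libraries were left out. Within the 6-gene sum, pou5f3.2.L held 35.7% and 20.2% in control embryos, against 46.3% and 53.9% in knockdown embryos. The share of pou5f3.L was 42.5% and 72.5% in control embryos, against 41.3% and 28.2% in knockdown embryos, and that of pou5f3.S was 4.404% and 3.553% in control embryos, against 1.4999% and 1.148% in knockdown embryos. In these 3 shares the groups did not overlap, pou5f3.2.L being higher and the rows without a copy number lower in sox8 CRISPR. For pou5f3.L the nearest values of the groups were 42.5% and 41.3%. The exact permutation p was 0.333 each, the smallest that 2 against 2 libraries can give. The shares of pou5f3.2.S, pou5f3.3.L and pou5f3.3.S in the 6-gene sum overlapped between the groups.

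**Figure D3:**
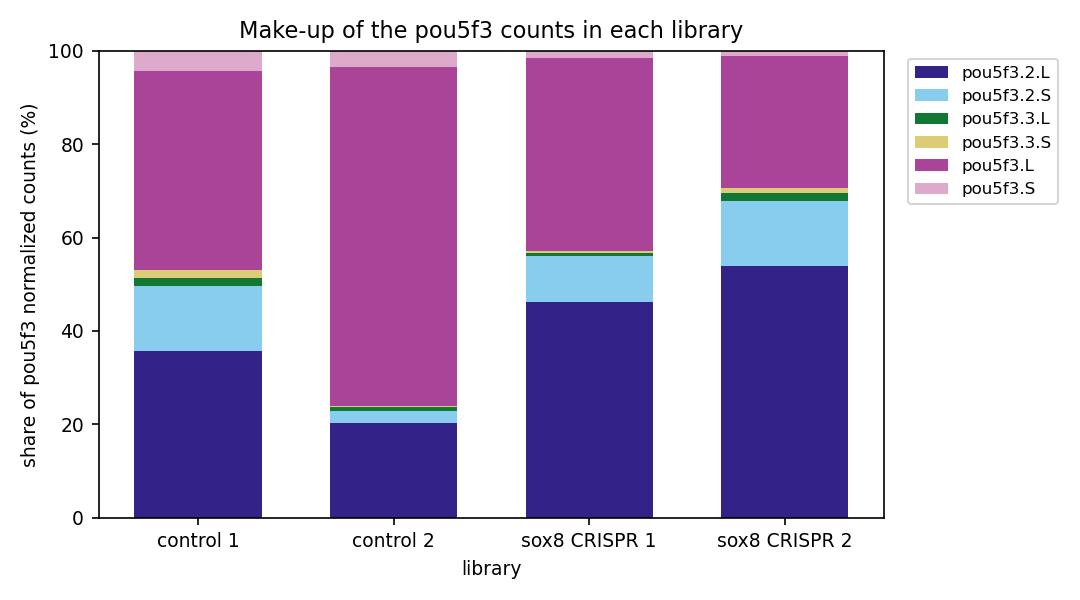
Make-up of the counts of 6 pou5f3 genes in each library, as percent of their summed normalized counts (y axis), 1 bar for each library. The pou5f3.2.L segment covers 35.7% and 20.2% in control embryos, against 46.3% and 53.9% in knockdown embryos, and segments are not corrected for transcript length.

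In the RefSeq annotation of assembly v10.1, the assembly to which the reads were aligned, the copies lie side by side. On the long subgenome, pou5f3.3.L is a protein-coding gene at chr8L:2287556-2293268, pou5f3.2.L follows at chr8L:2295625-2299844 after a gap of 2356 bases, and pou5f3.1.L at chr8L:2304047-2308547 after a gap of 4202 bases. The short subgenome keeps the same order, with pou5f3.3.S at chr8S:27577658-27582244, pou5f3.2.S at chr8S:27584027-27587612 and pou5f3.1.S at chr8S:27602654-27608214. There, the gaps are 1782 and 15041 bases. No position is given here for pou5f3.L and pou5f3.S.

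The neighbours of both clusters were read out as a comparison, taking the nearest 4 genes of the table on each side. Of these 16 genes, limma, edgeR and DESeq2 each called 0, with 0 at an unadjusted p under 0.05. In both sox8 CRISPR libraries, 2 lay above and 2 below both controls, against 17.0% and 19.1% of all genes, and their median log2 fold change was -0.48. The closest neighbour, fut7.L, which encodes a fucosyltransferase, ends 0.981 kb before pou5f3.3.L and had 117 and 6.36 normalized counts in control embryos, against 181 and 89.4 in knockdown embryos. The first neighbour on the other side, entpd2.L, had 95.3 and 211 in control embryos, against 177 and 2.42 in knockdown embryos, and both genes overlapped between the groups. The glutamine synthetase gene glul.S was higher in both sox8 CRISPR libraries, with 3128 and 6163 in control embryos, against 9912 and 6264 in knockdown embryos. The ABC transporter gene abca2.L was so too at very low counts, 0 and 4.77 against 5.62 and 15.7. The genes mrpl41.S, for a mitochondrial ribosomal protein, and zmynd19.S were lower in both. The former had 493 and 207 normalized counts in control embryos, against 62.5 and 185 in knockdown embryos, the latter 255 and 416 in control embryos, against 138 and 76.1 in knockdown embryos. The other neighbours, LOC121396853, LOC108698138, edf1.S, entpd2.S, LOC108699886, LOC121396854, uap1l1.L, man1b1.L, clic3.S and tesk1.S, overlapped between the groups, and the second sox8 CRISPR library listed the last 5 of these at 0.

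The table held 9 further POU-domain genes of other classes, among them the ubiquitous Oct1 gene pou2f1 and the neural class III genes pou3f1 and pou3f2. Of all 15 POU-domain genes, 0 were called by limma, edgeR or DESeq2, and 1, pou5f3.2.S, had an unadjusted limma p under 0.05. Their median log2 fold change was 0.64, the value of pou2f2.S at very low counts, against -0.16 over all genes. Both sox8 CRISPR libraries were above both controls for 5 of the 15, the members and pou3f1.S, and below for 1, pou2f3.L. Over all genes these shares were 17.0% and 19.1%. Of the 9 genes of other classes, 1 lay above and 1 below.

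The level of pou2f1.L was 1243 and 4048 normalized counts in control embryos, against 3009.5 and 3002 in knockdown embryos. The level of pou2f1.S was 142 and 568 in control embryos, against 807 and 419 in knockdown embryos. Both Oct1 homeologs thus overlapped between the groups, as did pou6f1.L, a class VI gene, at 1601 and 482 in control embryos, against 778 and 3099 in knockdown embryos. The log2 fold changes of these genes were 0.42 for pou2f1.L, 1.03 for pou2f1.S and 0.82 for pou6f1.L (limma adjusted p = 0.924, 0.851 and 0.873).

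The class III gene pou3f1.S, known from neural tissue, was at 0 in both controls and at 27.5 and 12.1 normalized counts in sox8 CRISPR. Against a floor of 3 reads per library the mean of the sox8 CRISPR libraries was at least 4.22-fold higher (limma adjusted p = 0.766). Its relative pou3f2.S showed no such split, with 40.6 and 81.9 in control embryos, against 76.8 and 70.1 in knockdown embryos, and pou3f2.L had 1.56 and 10.3 in control embryos, against 1.87 and 53.2 in knockdown embryos. The remaining genes were near the limit of detection, with at most 18.1 normalized counts for pou2f2.L, 16.9 for pou2f2.S and 11.1 for pou2f3.L.

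The genes whose pattern over the 4 libraries was most like that of each member were found among 13718 genes with a mean of 50 or more normalized counts. The measure was the Euclidean distance between log2(normalized count + 1) values centred on the gene's mean, so 0 is an identical pattern. With only 4 libraries, all made by the same protocol, this likeness is a description. Nearest to pou5f3.2.L were actg1.S (distance 0.048), pmt.S (0.10), stx19.S (0.14), jade3.L (0.22) and dnah5.L (0.23). The cytoskeletal actin gene actg1.S had 657 and 1134 normalized counts in control embryos, against 4687 and 1534 in knockdown embryos, the same order of libraries as pou5f3.2.L. Nearest to pou5f3.2.S were necap1.S (0.18), atp8a1.S (0.19), btg5.2.S (0.23), xicl (0.29) and sgsm1.S (0.30). The oct25 homeologs were at a distance of 1.13 from each other, which put pou5f3.2.S at rank 511 among the genes nearest to pou5f3.2.L.

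For pou5f3.3.L the nearest genes were marchf7.L (0.026), taf15.L (0.066), jmjd6.S (0.073), gcdh.L (0.090) and the mesodermal and neural crest repressor gene snai1.L (0.090). For pou5f3.3.S they were rgs4.S (0.14), sfxn3.L (0.15), LOC108699920 (0.16), akap8l.L (0.17) and LOC108701365 (0.20). The oct60 homeologs were 1.24 apart, which was more than the distance of 1.00 between pou5f3.3.S and pou5f3.2.S.

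The network around class V POU factors was read from a list of 32 gene symbols that partner them or are used beside Oct4 in stem cells, which gave 58 rows, while 4 of the symbols were not analysed here. Of these rows, 9 were called by limma, 3 higher and 6 lower, against 0.144% and 0.19% of all genes. In both sox8 CRISPR libraries 14 lay above and 20 below both controls, against 17.0% and 19.1% of all genes. The list did not move one way, with a median log2 fold change of 0.45 against -0.16 over all genes, and the calls fell on a pair of gene families. When any single library was left out, limma called 0 genes in the whole table, these included.

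The SoxB1 genes, whose proteins bind DNA together with Oct4-type factors, were higher in both sox8 CRISPR libraries without being called. This pattern was shown by 17.0% of all genes. For sox3.L the libraries gave 270.2 and 369.6 normalized counts in control embryos, against 1563 and 752 in knockdown embryos (log2 fold change 1.78, limma adjusted p = 0.673). For sox3.S they gave 476 and 483 in control embryos, against 2269 and 1358 in knockdown embryos (log2 fold change 1.87, limma adjusted p = 0.584). For sox2.S they gave 133 and 42.9 in control embryos, against 307 and 219 in knockdown embryos (log2 fold change 1.76, limma adjusted p = 0.789). For sox2.L they gave 12.5 and 0.79 in control embryos, against 147 and 23.0 in knockdown embryos (log2 fold change 3.60, limma adjusted p = 0.768).

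The foxd4l1 genes, which encode forkhead factors that hold neural ectoderm in an immature state, rose. There were 201 and 397 normalized counts of foxd4l1.1.L in control embryos, against 5897 and 3418 in knockdown embryos (log2 fold change 3.98, limma adjusted p = 0.0171). Its homeolog foxd4l1.1.S had 65.6 and 251 in control embryos, against 4783 and 3315 in knockdown embryos (log2 fold change 4.94, limma adjusted p = 0.00613). The third, foxd4l1.2.L, had 56.2 and 38.9 in control embryos, against 1622 and 694 in knockdown embryos (log2 fold change 4.47, limma adjusted p = 0.0254). These genes and the SoxB1 genes also stand on the list of neural plate markers. Of its 18 rows limma called 4 higher and 0 lower, against 0.144% and 0.19% of all genes. The summed neural plate markers were at 3343 and 4627 normalized counts in control embryos, against 21699 and 13118 in knockdown embryos, with 0 to 2 of the rows at 0 in a library. The part of neural tissue in the pou5f3 values was not tested.

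Of 10 rows of Ventx genes, BMP-dependent ventral homeobox factors, limma called 6 lower, against 0.19% of all genes. The largest change of the list was that of ventx3.2.L, with 4195 and 2298 normalized counts in control embryos, against 34.4 and 2.42 in knockdown embryos (log2 fold change -8.14, limma adjusted p = 0.00104). The other called genes were ventx3.2.S and 4 rows of ventx1, with log2 fold changes from -6.06 for ventx1.S (limma adjusted p = 0.00104) to -4.56 for ventx1.2.S and ventx3.2.S (limma adjusted p = 0.0254 and 0.0162). The 4 ventx2 rows had log2 fold changes from -2.10 to -1.75 and were not called. All 10 Ventx rows were below both controls in both sox8 CRISPR libraries, a pattern shown by 19.1% of all genes. The 4 pou5f3 members were above, as were 17.0% of all genes, and were not called. For pou5f3.3.L and pou5f3.3.S the lower sox8 CRISPR library was only 1.03-fold and 1.01-fold above the higher control. The Ventx rows also stand on the ventrolateral marker list described above.

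Other genes of the list included regulators shared with mammalian stem cells. All 4 lin28 genes, which encode RNA-binding proteins that block let-7 maturation, were lower in both sox8 CRISPR libraries, as were 19.1% of all genes. Their log2 fold changes were -2.04 for lin28a.S, -1.22 for lin28a.L, -1.31 for lin28b.L and -1.41 for lin28b.S (limma adjusted p from 0.563 to 0.815). The proto-oncogene myc.L had 1468 and 2529 normalized counts in control embryos, against 396 and 381 in knockdown embryos (log2 fold change -2.31, limma adjusted p = 0.320). The Nodal co-receptor gene tdgf1.L went the other way, with 15.6 and 27.8 in control embryos, against 311 and 419 in knockdown embryos (log2 fold change 4.05, limma adjusted p = 0.192). The anterior homeobox gene otx2.L was at 0 in both controls and at 385 and 29.0 in sox8 CRISPR (limma adjusted p = 0.316). The mean of the sox8 CRISPR libraries, carried mostly by the first, was at least 44.2-fold above the floor of 3 reads per library. Its homeolog otx2.S overlapped between the groups, with 0 and 4.77 in control embryos, against 156 and 0 in knockdown embryos. Limma called none of these genes. On the recovered reads otx2.L was called by edgeR (adjusted p = 0.0296) and DESeq2 (adjusted p = 9.26e-05), and tdgf1.L by DESeq2 (adjusted p = 0.00162).

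**Figure D4:**
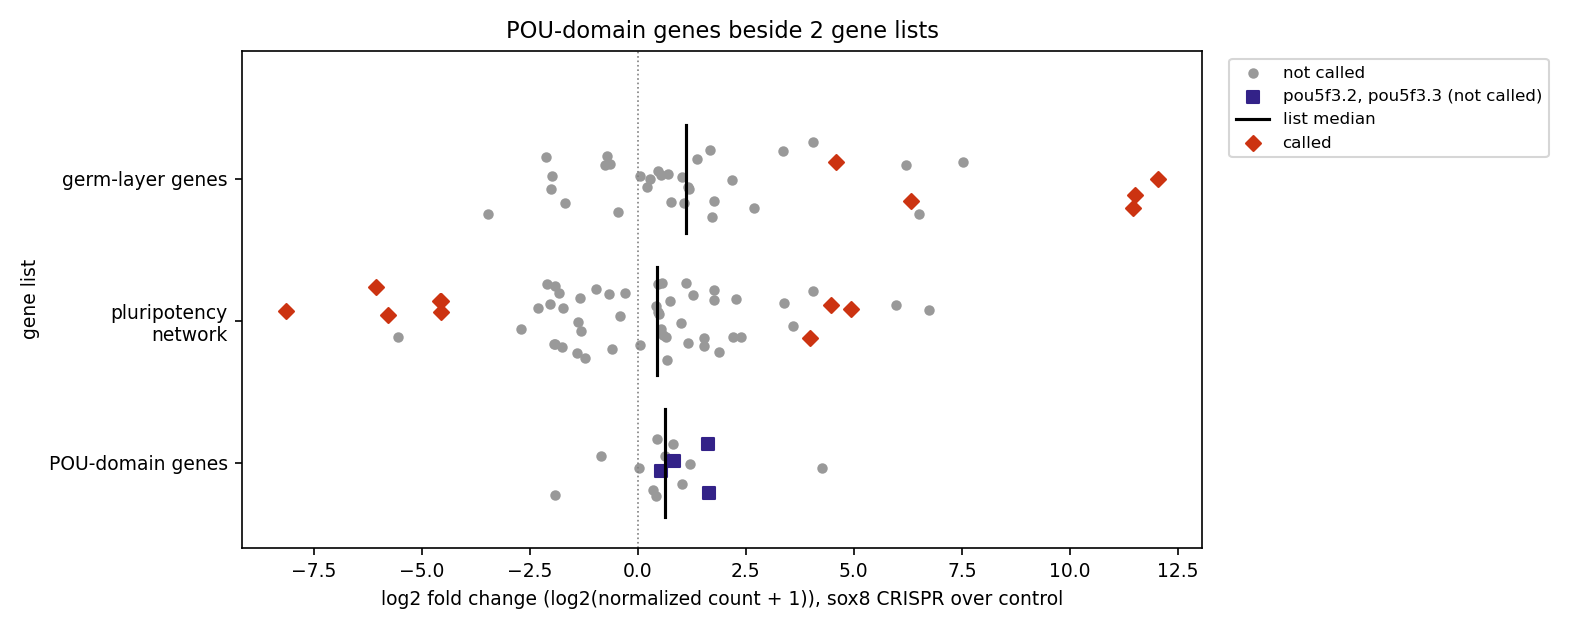
Log2 fold changes (x axis, on the log2(normalized count + 1) scale) of the genes of 3 lists (y axis), 1 point for each gene, with vertical scatter for legibility only, a bar at the list median and red diamonds for genes called by limma. The pou5f3.2 and pou5f3.3 genes (blue squares) lie between 0.55 and 1.66, among POU-domain genes with a median of 0.64, while the called genes of the pluripotency network stand at both ends.

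A second list held 22 symbols of germ-layer genes that Xenopus class V POU factors are known to restrain, mainly targets of Nodal, VegT and beta-catenin, which gave 36 rows, while 5 of the symbols were not analysed here. Of these, 5 were called higher and 0 lower by limma, against 0.144% and 0.19% of all genes. In both sox8 CRISPR libraries 16 lay above and 4 below both controls, against 17.0% and 19.1% of all genes. The median log2 fold change was 1.11. It was 0.89 with 7 genes set to their bound, those with 3 reads or fewer in every library of 1 group. The chrd genes named next are among these. The called genes were chrd.1.L, chrd.1.S and chrd.2.L, which encode the BMP antagonist Chordin, and foxa4.L and foxa4.S, forkhead genes of the organizer and notochord.

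Chordin transcripts were all but missing from the controls. The 2 controls listed chrd.1.L at 0 and 0, and the sox8 CRISPR libraries had 8702 and 917 normalized counts (limma adjusted p = 0.000765). The mean of the sox8 CRISPR libraries was at least 1027-fold above the floor. For chrd.2.L there were 0 and 0 in control embryos, against 11979 and 1483 in knockdown embryos, with a mean at least 1437-fold above the floor (limma adjusted p = 0.000226). For chrd.1.S there were 0 and 0.795, that is 1 read, in control embryos, against 16794 and 899 in knockdown embryos (limma adjusted p = 0.000648). The forkhead gene foxa4.L rose by 4.58 on the log2 scale (limma adjusted p = 0.00956), with 245 and 361 normalized counts in control embryos against 13950.0 and 3648 in knockdown embryos. Its homeolog foxa4.S rose by 6.33 on the log2 scale (limma adjusted p = 0.00639), with 40.6 and 31.8 against 11220.4 and 781. The first sox8 CRISPR library was the higher of the group in all 5, and the share of all genes with this order was not counted. These genes stand on the organizer marker list too, which shares 9 rows with the germ-layer list.

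Limma called none of the mesendoderm genes named next from the same list. The homeobox gene gsc.L had 3.12 and 0 normalized counts in control embryos, against 415 and 335 in knockdown embryos (limma adjusted p = 0.0580). It was called by edgeR (adjusted p = 0.0105) and DESeq2 (adjusted p = 9.35e-07). Its homeolog gsc.S had 18.7 and 0 in control embryos, against 530 and 307 in knockdown embryos, and was called by DESeq2 (adjusted p = 0.00123). The nodal.L gene had 3.12 and 7.95 normalized counts in control embryos, against 1028 and 195 in knockdown embryos (log2 fold change 6.21, limma adjusted p = 0.0685), and was called by edgeR (adjusted p = 0.00951) and DESeq2 (adjusted p = 2.68e-07). The T-box gene eomes.S had 10.9 and 12.7 in control embryos, against 197 and 229.6 in knockdown embryos (log2 fold change 4.06, limma adjusted p = 0.375), and was called by DESeq2 (adjusted p = 0.00664). The maternal and zygotic T-box gene vegt.L had 12189 and 28858 in control embryos, against 44355 and 53056 in knockdown embryos (log2 fold change 1.37, limma adjusted p = 0.860). The homeobox gene mix1.S had the opposite sign, with 239 and 482 in control embryos, against 104 and 67.7 in knockdown embryos (log2 fold change -2.001, limma adjusted p = 0.720).

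Markers of other tissues that ventral explants could hold were set beside the members. Epidermal markers summed to 1859.9 and 1319.5 normalized counts in control embryos, against 1492 and 794 in knockdown embryos, endoderm markers to 1232 and 932 in control embryos, against 3188 and 1413 in knockdown embryos, and germ plasm markers to 2645 and 2703 in control embryos, against 1923 and 1570.0 in knockdown embryos. Limma called 0 of their 16, 17 and 11 rows, with 2, 5 and 0 rows at an unadjusted p under 0.05, while edgeR called 0, 1 and 0 of them and DESeq2 2, 2 and 0. Over all genes limma called 0.334%, and 6.79% had an unadjusted p under 0.05. Among epidermal rows 1 was higher and 4 lower in both sox8 CRISPR libraries, against 17.0% and 19.1% of all genes. Their median log2 fold change was 0.26. The genes dlx3.S and dlx5.S, called by DESeq2, had log2 fold changes of -6.83 and -4.88. Of the endoderm rows 2 were higher and 3 lower in both sox8 CRISPR libraries (median log2 fold change -1.19), against 17.0% and 19.1% of all genes. The a2m.S gene alone had 20.3 and 21.5 in control embryos, against 1330 and 266 in knockdown embryos. The rows lower in both were gata4.S, gata5.S and gata6.L. For gata5.S there were 39.0 and 149 in control embryos, against 0 and 0 in knockdown embryos. DESeq2 called a2m.S higher (adjusted p = 9.12e-06) and gata5.S lower (adjusted p = 0.00158). Of the germ plasm rows 3 were higher and 3 lower in both (median log2 fold change 0.41), beside the same shares of all genes. The ddx4.L gene alone had 2000 and 1986 in control embryos, against 960.1 and 614 in knockdown embryos. Its homeolog ddx4.S went the other way, with 68.7 and 74.7 in control embryos, against 87.4 and 184 in knockdown embryos. The share of these tissues in the pou5f3 values was not tested.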

How the data were processed

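RNA from ventral mesoderm was sequenced from Smart-seq2 libraries (full-length cDNA, no molecular identifiers), 2 per group. The authors trimmed the reads with cutadapt 4.4, removed rRNA reads, aligned the rest to X. laevis v10.1 with HISAT2 2.2.1, counted them per gene with featureCounts 2.0.6 and kept genes with a mean of 5 or more. The deposited values are a signal, the counts divided by a DESeq2 size factor per library. How multi-mapping reads and strand were treated is not given in the sources used here. Division by the value of 1 read (0.625 to 1.56 normalized counts) gave whole reads within 0.001 for 100% of values, and 0 other columns held values. Depth was 18189895 to 24108577 reads, but the 2 libraries per group limit the precision.

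Log2(normalized count + 1) was tested with limma 3.58.1 (R 4.3.3, variances moderated over genes with an intensity trend, two-sided) over all 21531 genes. The p-values were Benjamini-Hochberg adjusted. Sums and shares were compared with exact permutation tests (SciPy 1.17.1). Alternatives were pseudocounts of 0.5 and 5, a mean of 10 or more, TMM and quantile scaling, no trend, a replicate block, each library left out, and edgeR 4.0.16 or DESeq2 1.42.0 on the recovered reads. A crossed block and the sum with pou5f3.L and pou5f3.S were added after seeing the data. Fits were tested on simulated data with changes larger than those estimated for the members, so that test does not cover changes of the members' size.

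Genes named are all POU-domain genes, called members of the network and germ-layer lists and those with their 3 largest changes at a mean of 50 or more, the nearest 4 neighbours of each cluster side, the 5 most alike genes and sox8. Other genes of the network and germ-layer lists (SoxB1, lin28, myc.L, tdgf1.L, otx2.S, nodal, eomes, vegt, mix1, gsc, gmnn) were chosen after their values were seen. Of the tissue marker lists, to which the same rule applied, mostly counts and sums are given. Lists were matched by symbol with or without a tandem copy number and .L or .S. The members and lists were chosen with earlier results of these data known. RefSeq v10.1 gave positions for the 92.1% of symbols that matched. Exon lengths and sequences were not used here.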

Additional observations from a re-analysis of the deposited data

How the results depend on the processing

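The 4 members had a positive log2 fold change in all fits and were called in none. Their limma, edgeR or DESeq2 adjusted p ranged from 0.0506 to 0.999 for pou5f3.2.L and from 0.0813 to 0.999 for pou5f3.2.S, lowest with the crossed block and next lowest in DESeq2, 0.320 and 0.351. Same-numbered libraries tended only weakly to deviate in opposite directions (r = -0.22 across 21531 genes). With a replicate block limma called 86 genes in place of 72, and the adjusted p of the members was 0.999. A crossed block, chosen after seeing the data, called 776 genes, 20 of the pluripotency network (9 as reported) and 10 of the germ-layer list (5 as reported). The count over all genes was 153 with a pseudocount of 5, 199 with quantile normalization (114 higher and 85 lower, against 31 and 41), 109 in edgeR and 423 in DESeq2. Over all genes the median log2 fold change was -0.16 as deposited, -0.11 with TMM and -0.02 with quantile normalization. Germ-layer calls were 8 with a pseudocount of 5, 8 with quantile normalization and 9 in DESeq2. Without the intensity trend limma called 0 genes, 0 on either list, with 1450 genes at an unadjusted p under 0.05. With a library left out, limma called 0 genes in each case, 0 on either list, with 510 to 3972 genes at an unadjusted p under 0.05. The cause was not tested, and such a fit has fewer libraries. With single libraries left out, the log2 fold change of pou5f3.L ranged from -1.19 to 1.24 and that of pou5f3.S from -1.97 to 0.26. Adding both to the sum brought its log2 difference from 1.56 to 0.73. Division by exon length was not run. Depth limited the oct60 genes, with 31 to 168 reads per library.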

Other observations

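The rows pou5f3.L and pou5f3.S shared a pattern that crossed the groups, and other genes had it too. Nearest to pou5f3.L among 13718 genes was ogdh.S, which encodes a subunit of the oxoglutarate dehydrogenase complex (centred Euclidean distance 0.064), with 214 and 1145 normalized counts in control embryos, against 1216 and 214 in knockdown embryos. The next were rbm42.L (0.17), LOC108701730 (0.27), arhgef17.L (0.27) and ctdspl.S (0.28). Nearest to pou5f3.S were plekhg7.S (0.095), otud7b.S (0.16), the FGF receptor gene fgfr1.L (0.17), tbc1d13.L (0.17) and the co-repressor gene rcor2.L (0.18). For fgfr1.L there were 286 and 753 normalized counts in control embryos, against 501 and 124 in knockdown embryos, so that, as for pou5f3.S, the second control was highest and the second sox8 CRISPR library lowest. The rows pou5f3.L and pou5f3.S lay 1.18 apart. These distances rest on 4 libraries and are a description without a test.

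The replication-licensing inhibitor genes gmnn.L and gmnn.S, which are on the pluripotency network list, had the opposite crossing. There were 24638 and 7651 normalized counts of gmnn.S in control embryos, against 10432 and 46465 in knockdown embryos, and 12401 and 3219 of gmnn.L in control embryos, against 5551 and 17682 in knockdown embryos. The first control and the second sox8 CRISPR library were the high ones in both genes.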
